A study of Mus musculus with 6 samples.

Results

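Iron handling was followed in E9.5 mouse hearts through 10 genes (*Tfrc*, *Steap3*, *Slc11a2*, *Slc25a37*, *Fth1*, *Ftl1*, *Ireb2*, *Aco1*, *Hmox1* and *Slc40a1*). They were taken from 14996 transcript clusters, the array's units for a gene, that were annotated to 1 gene among 23332 in all. Each gene was read from a cluster that names it and no other gene. This gave values for 9 of the 10 genes, since *Ftl1* has none, and each of the 9 had a single such cluster. Transcripts were read on 6 arrays of the Affymetrix Mouse Exon 1.0 ST type, 3 from wildtype embryos (Mesp1+/+; Hic2 FL/FL) and 3 from *Hic2* conditional mutants (Mesp1Cre/+; Hic2 FL/FL). These genotypes are those of the labels, by which all embryos carried floxed *Hic2* alleles. The methods also count embryos with a single floxed allele and no Cre as wildtype, and their share of these pools is unknown. The Cre is a knock-in at the *Mesp1* locus that is active in the anterior mesoderm, from which heart and some blood cells arise, and it leaves the mutants with a single intact copy of *Mesp1*. A group with Cre alone was not analysed here. Each array held RNA from a pool of 4 to 6 whole hearts together with the blood inside them, and the study calls the pools biologically independent. Its methods state that hearts came from embryos without a visible phenotype.

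Iron circulates bound to transferrin and enters cells when the transferrin receptor carries this complex into endosomes. There the iron is released, reduced and moved into the cytosol, from where it goes to ferritin for storage, to mitochondria for haem and iron-sulphur cluster synthesis, or out of the cell through ferroportin. Erythroid precursors take up most of the iron used in an embryo because haemoglobin is assembled around haem. The iron regulatory proteins bind hairpins in the mRNAs of the receptor, of ferritin and of ferroportin, and so control them largely after transcription. An array of mRNA does not measure that step.

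A single gene of the set stood apart. *Slc25a37*, which encodes mitoferrin 1, the carrier that brings iron into the mitochondria of erythroid precursors, was higher on every mutant array, by 1.75-fold. Transcripts for cellular uptake (*Tfrc*, *Slc11a2*), storage (*Fth1*), iron sensing (*Ireb2*, *Aco1*), haem breakdown (*Hmox1*) and export (*Slc40a1*) overlapped between genotypes. *Steap3*, the endosomal reductase, lay slightly higher on all 3 mutant arrays. The difference of *Slc25a37* was of the size seen for red cell genes on the same arrays.

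Values are log2 levels, and mutant minus wildtype was estimated with limma, an empirical Bayes linear model fitted to 10439 clusters, with p-values adjusted over all of them. To be tested, a cluster had to carry a gene name and a linear mean over 100 in at least 1 genotype. Of the 9 genes with a cluster, 8 were tested, and *Slc40a1* fell below that minimum. Of these 8, limma called 0 at an adjusted p under 0.05, where 0.0671% of all clusters tested were called. At an unadjusted p under 0.05, 1 of the 8 was higher and 0 were lower, against 1.68% higher and 5.90% lower over all clusters. All mutant arrays lay above all wildtype arrays for 2 of the 8 (2.82% of all clusters) and below them for 0 (9.59% of all clusters). The differences of the 8 split evenly, 4 above 0 and 4 below, with a median of -0.0016 (quartiles -0.13 and 0.09), whereas 71.8% of all clusters lay below 0 with a median of -0.09. That share of all clusters depended on the scaling, with 58.2% below 0 after quantile normalisation and 54.4% after cyclic loess.

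**Figure D1:**
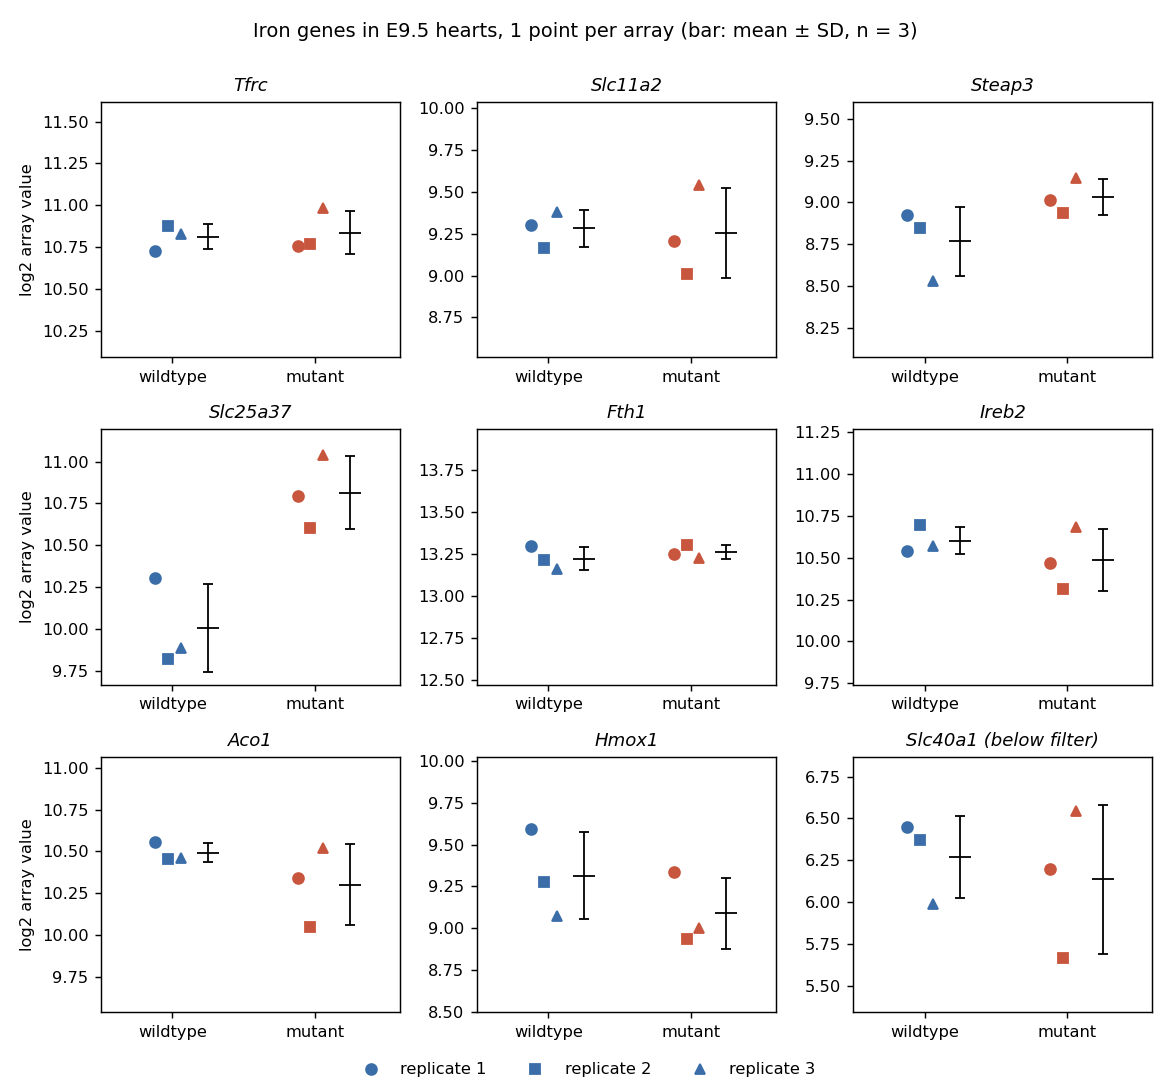
Log2 array level (vertical axis, a range of equal width in each panel) of the 9 iron genes with a cluster, 1 point per array, with the mean and SD of 3 arrays per genotype beside the points. The mutant *Slc25a37* points, 10.61 to 11.04, lie above all wildtype points, 9.82 to 10.31, and in every other panel except that of *Steap3* the genotypes overlap.

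The pools also differed in the levels of red cell and endoderm genes. Of 19 erythroid genes tested, none of them a member of the set, all lay above 0 in the mutant, with a median log2 difference of 0.85 and 16 higher at an unadjusted p under 0.05 by limma. Their median level per array was 8.44, 8.15 and 7.69 in the wildtype pools and 8.85, 8.58 and 9.11 in the mutant pools. In a whole heart, more red cells and more RNA per red cell cannot be told apart. Wildtype replicate 3 thus had the lowest and mutant replicate 3 the highest erythroid level. Mutant replicate 3 also carried the highest levels of the liver and yolk sac endoderm genes *Afp* (9.44, against 4.86 to 7.89 on the other arrays) and *Alb* (8.28, against 4.57 to 5.33). Among the other arrays, *Afp* was high in wildtype replicate 1 (7.89) and mutant replicate 1 (7.03). Of 9 macrophage and white cell genes with a cluster, 2 passed the minimum for testing, 5 lay above 0 and 4 below, with a median of 0.0059. The log2 of the mean linear level of these 9 genes was 5.96 to 6.10 in wildtype and 6.01 to 6.12 in mutant pools. Among those below the minimum, *Mrc1*, a macrophage receptor named after its values were seen, was at -0.38 with the mutant arrays below every wildtype array, and *Ptprc* and *Adgre1* lay between 3.73 and 3.95 on all arrays. Cardiomyocyte genes had a median difference of -0.01 over 7 tested. *Hic2* itself fell by 0.92 on the log2 scale, from 9.21 ± 0.25 to 8.29 ± 0.07 (SD, n = 3 arrays each; limma, adjusted p = 0.125).

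*Tfrc* encodes transferrin receptor 1, the entry point for transferrin-bound iron, and is especially abundant on erythroid precursors. Its levels were 10.73, 10.88 and 10.83 in wildtype pools (replicates 1, 2 and 3, the order used throughout) and 10.76, 10.77 and 10.98 in mutant pools. Mutant replicates 1 and 2 lay inside the wildtype range and mutant replicate 3 above it, while the lowest array was wildtype replicate 1. The log2 difference was 0.03 (95% confidence interval -0.22 to 0.27, limma, adjusted p = 0.936), which corresponds to a fold between 0.861 and 1.203. Without the 2 arrays with the highest *Afp* of their genotype, wildtype replicate 1 and mutant replicate 3, the difference was -0.09. It was therefore small in either direction while erythroid genes on the same arrays were higher in the mutant.

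*Steap3* encodes the ferrireductase that reduces iron inside the endosome of erythroid precursors, so that it can be carried into the cytosol. Its levels were 8.92, 8.85 and 8.53 in wildtype and 9.01, 8.93 and 9.15 in mutant pools. All mutant arrays lay above all wildtype arrays, but the gap between the lowest mutant and the highest wildtype array was small compared with the spread of the wildtype arrays. The log2 difference was 0.26 (standard error 0.127, 95% confidence interval -0.03 to 0.56), and it did not pass the limma test (adjusted p = 0.606). Ranked by *Steap3*, the 6 arrays stood in the same order as by their erythroid median, from wildtype replicate 3 at the bottom to mutant replicate 3 at the top. With the erythroid median as a covariate the difference was -0.10, where the median over all clusters was -0.26. That covariate was 7.69 to 8.44 in wildtype and 8.58 to 9.11 in mutant pools, without overlap. Its part and that of genotype are therefore hard to separate in this fit, here and below.

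The promoter of *Steap3* is shown because GATA1, the master regulator of red cell genes, recognises a short motif that occurs there. The motif was searched on both strands as AGATAA or TGATAA, and with a final G as AGATAG or TGATAG, within windows running from 250 bases before to 50 bases after each RefSeq start site, and 29.8% of all 32851 such windows held it. The stretch below runs from 180 bases before to 20 bases after the most upstream start site of *Steap3* (RefSeq, build GRCm38.p6, chr1:120271061-120271260, minus strand), and capitals mark matches to the motif, which here read in reverse complement and begin 45 bases before the start site and at base 6 after it.
Steap3: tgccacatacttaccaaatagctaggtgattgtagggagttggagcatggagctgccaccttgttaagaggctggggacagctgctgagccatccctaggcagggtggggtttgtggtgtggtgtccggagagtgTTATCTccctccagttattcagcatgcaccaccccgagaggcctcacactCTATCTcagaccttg
Such a match describes letters in the sequence and is not evidence of binding. Windows were at hand for 6 of the 10 genes (*Tfrc*, *Steap3*, *Fth1*, *Ftl1*, *Ireb2* and *Aco1*). Of their 11 windows, 2 (18.2%) held the motif, the most upstream of the 4 of *Steap3* and of the 2 of *Fth1*. That window of *Fth1*, a gene whose levels overlapped between genotypes, also held 2 matches and is not shown.

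*Slc11a2* encodes the divalent metal transporter DMT1, which moves reduced iron out of the endosome. Its levels were 9.30, 9.17 and 9.38 in wildtype and 9.21, 9.01 and 9.54 in mutant pools. Mutant replicates 2 and 3 held the lowest and the highest value of all arrays, so that the mutant range enclosed the wildtype range. The log2 difference was -0.03 (95% confidence interval -0.36 to 0.30, limma, adjusted p = 0.946), and its sign turned under other scalings of the arrays (0.07 after quantile normalisation and 0.07 after cyclic loess).

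*Slc25a37* had the largest difference of the set in either direction. Its levels were 10.31, 9.82 and 9.89 in wildtype and 10.79, 10.61 and 11.04 in mutant pools. The genotypes did not overlap, the nearest arrays being wildtype replicate 1 and mutant replicate 2. The order of the arrays was that of the erythroid median except for wildtype replicates 2 and 3, which changed places. The log2 difference was 0.81 (standard error 0.161, 95% confidence interval 0.44 to 1.18), a fold of 1.75 (1.36 to 2.26). By limma it ranked 37 of 10439 by p-value (unadjusted p = 8.53e-04) and did not pass after adjustment (adjusted p = 0.241). When the erythroid median entered the model as a covariate, the estimate was 0.35 (limma, adjusted p = 0.289). Without wildtype replicate 1 and mutant replicate 3, the arrays with the highest *Afp* of their genotype, it was 0.85. Leaving out each array in turn gave 0.70 to 0.96. Its paralogue *Slc25a28*, which encodes the mitoferrin of tissues other than blood, had a level of 9.04 to 9.23 in wildtype and 9.11 to 9.19 in mutant pools. Its log2 difference was 0.014 (95% confidence interval -0.21 to 0.23), so the mutant arrays lay within the wildtype range.

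**Figure D2:**
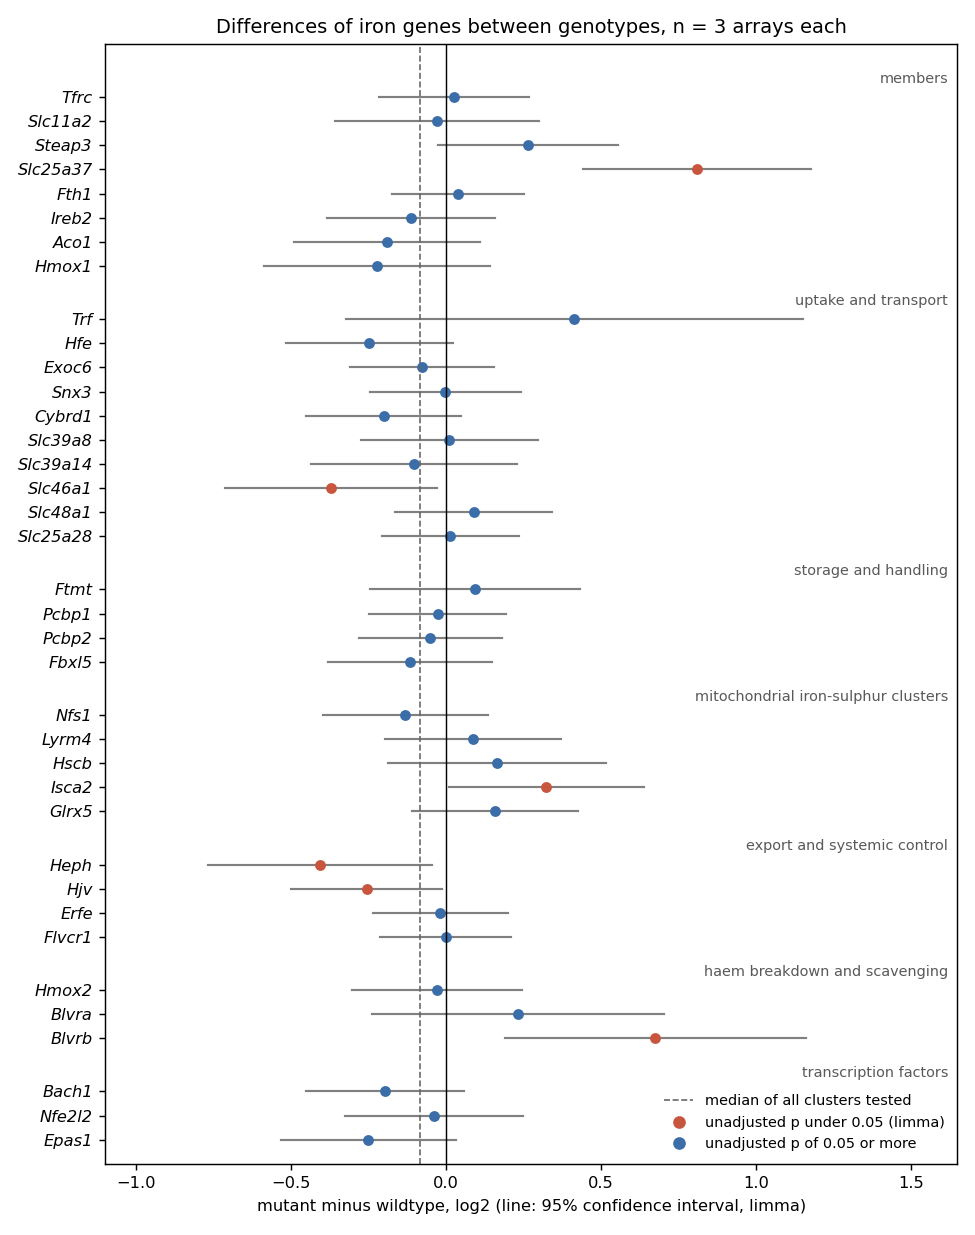
Mutant minus wildtype on the log2 scale (horizontal axis) for the 8 iron genes tested (top group) and the 29 other iron genes tested, grouped by role, with 95% confidence intervals from limma over 3 arrays per genotype. *Slc25a37* at 0.81 and *Blvrb* at 0.68 lie farthest to the right, *Heph* at -0.41 and *Slc46a1* at -0.37 farthest to the left, and the dashed line marks the median of all clusters at -0.09.

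For storage, *Fth1* encodes the ferritin heavy chain, the subunit that oxidises iron as it is laid down. Its levels were 13.30, 13.21 and 13.16 in wildtype and 13.25, 13.31 and 13.23 in mutant pools. These values were interleaved, and the spread was small in both genotypes. The log2 difference of *Fth1* was 0.04 (95% confidence interval -0.18 to 0.25, limma, adjusted p = 0.888), a fold between 0.886 and 1.19. The light chain gene *Ftl1* gave no value, since no cluster was annotated to it alone.

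The iron sensors lay slightly lower in the mutant, within the spread of the arrays. *Ireb2* encodes iron regulatory protein 2, which is degraded when iron is plentiful. Its levels were 10.54, 10.70 and 10.57 in wildtype and 10.47, 10.31 and 10.68 in mutant pools, a log2 difference of -0.11 (95% confidence interval -0.39 to 0.16, limma, adjusted p = 0.731). *Aco1* encodes iron regulatory protein 1, which doubles as the cytosolic aconitase when it holds an iron-sulphur cluster. Its levels were 10.56, 10.46 and 10.46 in wildtype and 10.34, 10.05 and 10.52 in mutant pools, with a log2 difference of -0.19 (95% confidence interval -0.49 to 0.11, limma, adjusted p = 0.632). In both genes mutant replicate 2 was the lowest array and mutant replicate 3 lay among the wildtype arrays. Without mutant replicate 3, *Aco1* was at -0.30 and passed an unadjusted p under 0.05 (limma, adjusted p = 0.234).

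*Hmox1* encodes haem oxygenase 1, which opens the haem ring and frees its iron. Its levels were 9.59, 9.27 and 9.07 in wildtype and 9.33, 8.93 and 8.999 in mutant pools. The ranges overlapped, and the first replicate was the highest of each genotype. The log2 difference was -0.22 (95% confidence interval -0.59 to 0.14, limma, adjusted p = 0.635), and it was -0.04 without wildtype replicate 1 and mutant replicate 3. *Slc40a1* encodes ferroportin, the exporter of iron from cells. Its levels, below the minimum for testing, were 6.45, 6.37 and 5.99 in wildtype and 6.20, 5.66 and 6.55 in mutant pools, 6.27 ± 0.25 and 6.14 ± 0.44 (SD, n = 3 arrays each). Mutant replicates 2 and 3 again enclosed all the wildtype arrays.

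Mutant replicate 3, the pool with the highest erythroid median and mean endoderm level, held the highest value of all 6 arrays for 5 of the 9 genes (*Tfrc*, *Slc11a2*, *Steap3*, *Slc25a37* and *Slc40a1*). The transferrin gene *Trf*, a product of liver and yolk sac that was chosen after its values were seen, was also highest there, at 9.44 against 7.78 to 8.68 on the other arrays. The part of these tissues in the levels of the iron genes was not tested beyond the values without that array.

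To set the iron genes against the red cells of the same pool, the erythroid median of each array was subtracted. Relative to it, *Slc25a37* stood at 1.86, 1.67 and 2.19 in wildtype and at 1.94, 2.03 and 1.93 in mutant pools. The mutant values lay inside the wildtype range. Its mean moved from 1.91 ± 0.26 to 1.97 ± 0.05 (SD, n = 3 arrays each), a difference of 0.06 (exact two-sided permutation test, p = 0.7). The sign turned to -0.08 when the mean of the erythroid genes replaced their median, and to -0.06 without wildtype replicate 2.

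The other 8 genes with a cluster lay lower in the mutant relative to the erythroid genes, without overlap between genotypes, as did 89.1% of all clusters tested. The erythroid median itself differed by 0.75 between genotypes, so a gene with equal levels in both would stand near -0.75 on this scale, and the values describe the 8 genes without setting them apart. *Tfrc* stood at 2.28, 2.73 and 3.14 in wildtype and at 1.91, 2.19 and 1.87 in mutant pools, a difference of -0.73. *Hmox1*, at the far end, differed by -0.98, and *Steap3*, nearest to 0, by -0.49. Between them lay *Aco1* (-0.94), *Slc40a1* (-0.89), *Ireb2* (-0.87), *Slc11a2* (-0.78) and *Fth1* (-0.72). Each of these 8 gave p = 0.1 in the exact two-sided permutation test, the smallest p that 3 against 3 arrays allow.

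**Figure D3:**
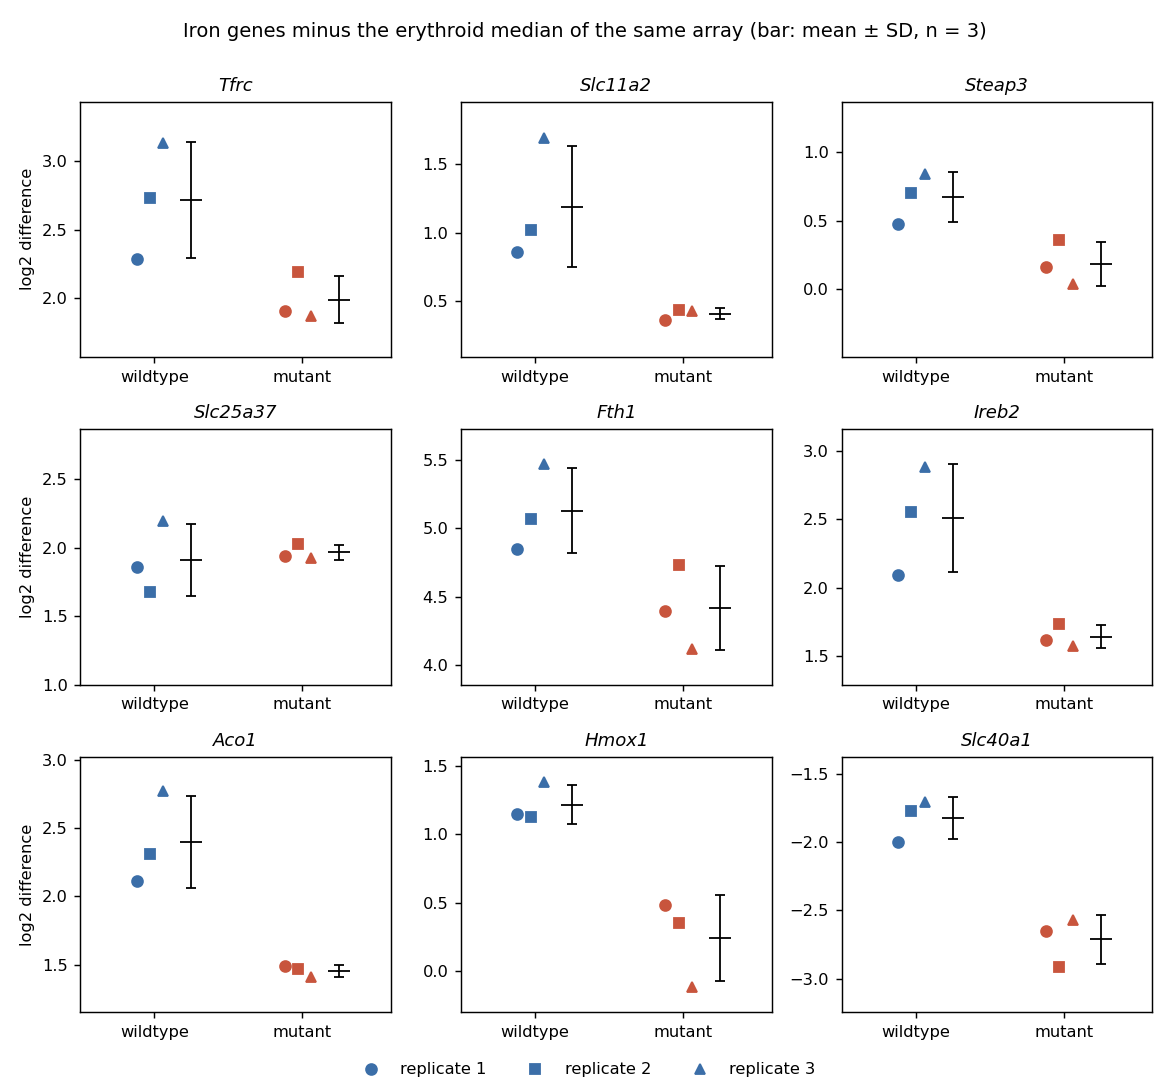
Log2 level of each iron gene minus the erythroid median of the same array (vertical axis, a range of equal width in each panel), 1 point per array, with the mean and SD of 3 arrays per genotype. *Slc25a37* stays between 1.67 and 2.19 in both genotypes, while the mutant points of the other 8 genes lie below their wildtype points, as for 89.1% of all clusters.

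The genes whose profile over the 6 arrays was most like that of *Slc25a37* were sought among 9987 single-gene clusters, by the root mean square difference of levels centred on their own mean. Nearest was *Kcnn4*, which encodes the calcium-activated potassium channel of red cells, at 0.05, followed by *Ablim3* (an actin-binding LIM protein, 0.09), *Ampd3* (the AMP deaminase of red cells, 0.11), *Trim10* (a tripartite motif protein of erythroid cells, 0.11) and *Ermap* (an erythroid membrane protein, 0.15). The median over all clusters was 0.49. *Trim10* and *Ermap* belong to the erythroid list. *Kcnn4* had levels of 8.08, 7.61 and 7.68 in wildtype and 8.55, 8.39 and 8.69 in mutant pools, the same order of arrays as *Slc25a37*. The mutant minus wildtype differences of these 5 genes, all of 0.63 or more, follow from the way they were chosen and were not tested as support.

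**Figure D4:**
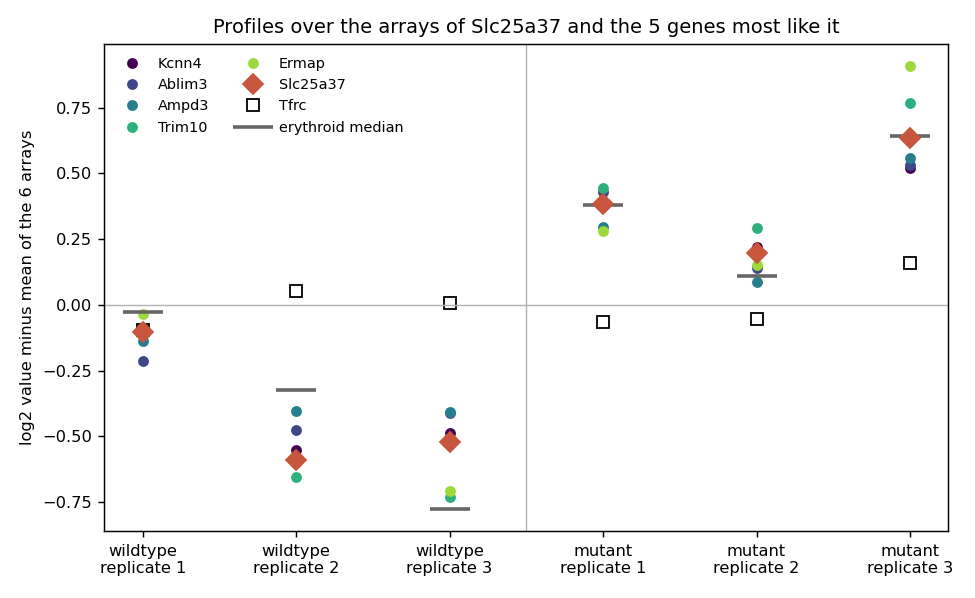
Log2 level minus the mean of the 6 arrays (vertical axis) for *Slc25a37*, the 5 genes with the most similar profile, *Tfrc* and the erythroid median, for each array (horizontal axis). *Slc25a37* and its 5 nearest genes lie below 0 on the wildtype arrays and above 0 on the mutant arrays, whereas *Tfrc* stays close to 0 on all.

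Promoter windows were scanned for 4 of these 5 genes. Matches to the GATA motif occurred in 3 of their 6 windows, those of *Ampd3*, *Trim10* and *Ermap*, and none in that of *Kcnn4*, against the 29.8% of all windows given above. They are shown for comparison with *Steap3*, each from 180 bases before to 20 bases after a RefSeq start site of build GRCm38.p6, with matches in capitals. *Ampd3* is the most downstream of its 3 windows (chr7:110773456-110773655, plus strand), *Trim10* lies at chr17:36869394-36869593 (plus strand) and *Ermap* at chr4:119189976-119190175 (minus strand).
Ampd3: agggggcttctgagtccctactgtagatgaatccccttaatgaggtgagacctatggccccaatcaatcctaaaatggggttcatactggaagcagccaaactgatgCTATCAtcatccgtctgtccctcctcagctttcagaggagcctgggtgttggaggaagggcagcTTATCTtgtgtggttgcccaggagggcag
Trim10: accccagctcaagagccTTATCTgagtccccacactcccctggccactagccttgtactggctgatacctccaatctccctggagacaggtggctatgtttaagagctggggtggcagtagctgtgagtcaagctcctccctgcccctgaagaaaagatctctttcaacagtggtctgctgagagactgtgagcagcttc
Ermap: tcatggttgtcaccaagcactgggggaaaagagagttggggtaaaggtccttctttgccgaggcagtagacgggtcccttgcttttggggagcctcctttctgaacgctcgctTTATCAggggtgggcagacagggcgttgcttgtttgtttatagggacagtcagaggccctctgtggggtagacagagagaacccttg
All 4 matches read in reverse complement on the strand shown. They begin 73 and 9 bases before the start site in *Ampd3*, 163 bases before it in *Trim10* and 67 bases before it in *Ermap*.

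The genes nearest in profile to *Tfrc* were sought in the same way. The nearest were *Septin2* (a cytoskeletal GTPase), *Yme1l1* (a protease of the mitochondrial inner membrane), *Eri2*, *Pdia3* (a protein disulphide isomerase of the endoplasmic reticulum) and *Ptp4a2* (a protein tyrosine phosphatase), at root mean square differences of 0.030 to 0.032, where the median over all clusters was 0.17. Their mutant minus wildtype differences lay between -0.01 and 0.03, which follows from the way they were chosen and was not tested as support.

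The wider pathway was read from 49 other iron genes, of which 38 had a cluster of their own, 9 fell below the minimum and 29 were tested. Of the 29, limma called 0 after adjustment over all clusters (lowest adjusted p = 0.606), 2 were higher and 3 lower at an unadjusted p under 0.05, and 11 lay above 0 and 18 below. Their median difference was -0.03. Mutant arrays lay above all wildtype arrays for 1 of them (*Blvrb*) and below for 2 (*Hjv* and *Cybrd1*). Over all clusters, 1.68% were higher and 5.90% lower at an unadjusted p under 0.05, and 2.82% lay above and 9.59% below without overlap.

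Haem breakdown and scavenging held the gene with the largest difference. *Blvrb* encodes biliverdin reductase B, an abundant enzyme of red cells. Its levels were 10.48, 9.97 and 9.504 in wildtype and 10.69, 10.67 and 10.62 in mutant pools. The mutant pools were close together, while the wildtype pools spread in the order of their erythroid levels. The log2 difference was 0.68 (standard error 0.213, 95% confidence interval 0.19 to 1.16), and with the erythroid median as a covariate it was 0.05. *Blvra*, which encodes the other biliverdin reductase, differed by 0.23 and the constitutive haem oxygenase *Hmox2* by -0.03, neither at an unadjusted p under 0.05.

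In mitochondria, 4 of 5 genes of iron-sulphur cluster assembly lay above 0. *Isca2*, a scaffold-like assembly factor, had levels of 9.92, 9.78 and 9.71 in wildtype and 10.28, 10.26 and 9.84 in mutant pools. Mutant replicate 3 fell among the wildtype arrays, unlike for *Slc25a37*, where it was the highest. The log2 difference of *Isca2* was 0.32 (95% confidence interval 0.01 to 0.64, limma, adjusted p = 0.606). *Glrx5*, a glutaredoxin needed for haem synthesis in red cells, differed by 0.16, and *Nfs1*, the cysteine desulphurase that supplies the sulphur, by -0.13.

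Among 10 genes of uptake and transport, 4 lay above 0 and 6 below. *Slc46a1*, a folate carrier that also transports haem, had levels of 9.64, 9.56 and 9.37 in wildtype and 9.18, 8.86 and 9.40 in mutant pools. Mutant replicates 1 and 2 lay below the wildtype arrays and mutant replicate 3 among them, and the log2 difference was -0.37 (95% confidence interval -0.71 to -0.03, limma, adjusted p = 0.606). *Hfe*, the haemochromatosis protein that associates with the transferrin receptor, differed by -0.25, and *Cybrd1*, a ferric reductase best known from the gut, by -0.20, neither at an unadjusted p under 0.05. Of 4 genes of storage and handling, 1 lay above 0 and 3 below, none at an unadjusted p under 0.05. *Fbxl5*, the iron-sensing subunit of the ubiquitin ligase that degrades iron regulatory protein 2, was at -0.12, and *Ftmt*, mitochondrial ferritin, at 0.09.

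The 4 genes of export and systemic control that were tested all lay below 0, as did 71.8% of all clusters. *Tmprss6* of the same list, below the minimum for testing, was at 0.12. *Heph* encodes hephaestin, a ferroxidase that works with ferroportin. Its levels were 7.99, 8.06 and 7.73 in wildtype and 7.55, 7.22 and 7.79 in mutant pools, a log2 difference of -0.41 (95% confidence interval -0.77 to -0.05, limma, adjusted p = 0.606). *Hjv* encodes haemojuvelin, a co-receptor for bone morphogenetic proteins that is made in liver, skeletal muscle and heart. Its levels were 10.05, 9.84 and 9.85 in wildtype and 9.55, 9.75 and 9.67 in mutant pools, and here the mutant arrays lay below every wildtype array. Its log2 difference was -0.26 (95% confidence interval -0.50 to -0.01, limma, adjusted p = 0.606), and it was no longer under an unadjusted p of 0.05 with the replicate number as a block. *Erfe*, the erythroid hormone erythroferrone, differed by -0.02 and *Flvcr1*, first described as a haem exporter, by -0.0021.

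The 3 transcription factors of iron and haem regulation lay below 0, none at an unadjusted p under 0.05. *Epas1*, which encodes hypoxia-inducible factor 2 alpha and whose mRNA is bound by iron regulatory proteins, was at -0.25, and *Bach1*, the haem-binding repressor of *Hmox1*, at -0.20. *Epas1* is also an endothelial gene, and 7 of 8 endothelial and endocardial markers tested lay below 0 (median -0.23). *Nfatc1* (-0.36), *Kdr* (-0.32) and *Flt1* (-0.31) were lower at an unadjusted p under 0.05 by limma. *Emcn*, the remaining marker, was at 0.11 with the mutant arrays above every wildtype array. Over all clusters, 71.8% lay below 0 and 5.90% were lower at that p. The log2 of the mean linear level of the 8 markers was 10.96 to 11.01 in wildtype and 10.75 to 11.02 in mutant pools. Their part in the lower values of *Epas1*, *Slc46a1* and *Heph* was not tested.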

How the data were processed

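RNA from 6 pools of E9.5 hearts, 3 per genotype, was hybridised by the authors to exon arrays, 1 array per pool. The deposited log2 values are gene-level RMA values that the authors made in the Affymetrix Expression Console from its core gene set. Its version and the genome build: not given in the sources used here. RMA equalises the arrays and compresses low levels, so levels were compared between arrays and not between clusters. All 6 columns were used.

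The group of each array, wildtype or mutant, was taken from the sample titles. As in the study's methods, a cluster entered the test if it named a gene and its linear mean exceeded 100 in the higher genotype. Mutant minus wildtype was fitted with lmFit and eBayes of limma 3.58.1 (R 4.3.3) with Benjamini-Hochberg adjustment over 10439 clusters, and the model was tested on simulated data. The number of arrays limits the precision. Symbols were updated through Entrez identifiers to RefSeq (GRCm38.p6), which matched 14941 of 14996 single-gene clusters. Promoter sequences are from RefSeq. Plots used matplotlib 3.10.9 (Python 3.11.15).

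The members and lists were chosen with earlier results of these data known. The lists were iron genes by role and erythroid, macrophage and white cell, liver and yolk sac endoderm, cardiomyocyte, and endothelial and endocardial markers. The genes named are the 10 members, other iron genes at an unadjusted p under 0.05 with up to 2 more per role by lowest p, up to 3 markers per list, and the 5 genes nearest in profile to *Slc25a37* and *Tfrc*. By this rule the markers were *Cldn13* (1.75), *Rhd* (1.60) and *Hemgn* (1.50) for erythroid, *Cd68* (0.10) and *Cx3cr1* (0.08) for white cells, *Alb* (1.44), *Afp* (1.19) and *Ttr* (0.32) for endoderm, and *Nppa* (0.25), *Nkx2-5* (-0.18) and *Ryr2* (-0.13) for cardiomyocytes, as log2 differences. Outside this rule, *Slc25a28*, *Trf*, *Mrc1*, *Ptprc*, *Adgre1*, *Rbp4*, *Apoa4*, *Amn*, *Tmprss6* and *Emcn* were named after their values were seen.

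Replicate numbers were checked for pairing by correlating deviations from the genotype means over all clusters tested. Same-numbered arrays correlated at 0.31, 0.14 and 0.46, and the others at -0.42 to 0.30, where wildtype 2 with mutant 1 (0.30) and wildtype 1 with mutant 2 (0.23) exceeded the lowest same-numbered value. The same-numbered arrays were treated as pairs in the block fit, without a source that says what the numbers mean. Alternative settings were the methods' t-test (log2 or linear values), limma with robust variances or an intensity trend, other filters, 3 scalings (cyclic loess, quantile normalisation and median centring), a replicate block, an erythroid covariate and leaving out each array. Leaving out both arrays with the highest *Afp* of their genotype was added after seeing the data.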

Additional observations from a re-analysis of the deposited data

How the results depend on the processing

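The difference of *Slc25a37* stayed above 0 in 20 alternatives, from 0.35 with the erythroid covariate to 0.96 without wildtype replicate 1, with an unadjusted p under 0.05 in 19 and an adjusted p under 0.05 in 0 (lowest 0.103 after cyclic loess, highest 0.905). The count of members higher at an unadjusted p under 0.05 was 2 after median centring, 2 after quantile normalisation, 2 after cyclic loess and 0 with the erythroid median as a covariate, and 1 to 2 with each array left out (2 without wildtype replicate 1). The second gene was *Steap3* in each of these. The count of members lower was 2 with the erythroid covariate (*Aco1* and *Hmox1*) and 0 to 1 with each array left out (1 without mutant replicate 3). Over all clusters, 2778 of 10439 were lower with that covariate, where 83.7% lay below 0, and 1744 of 10435 without mutant replicate 3. No alternative took a member past an adjusted p of 0.05.

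Other iron genes higher numbered 0 by the methods' t-test on log2 values, 0 on linear values, 1 with clusters without a gene kept, 0 with the erythroid covariate and 1 to 2 with each array left out (1 without wildtype replicate 2, wildtype replicate 3, mutant replicate 1 or mutant replicate 2). Those lower numbered 1 by the methods' t-test on log2 values, 1 on linear values, 6 after median centring, 8 with the erythroid covariate and 0 to 7 with each array left out (0 without wildtype replicate 1, wildtype replicate 2 or mutant replicate 1, 1 without mutant replicate 2, and 7 without wildtype replicate 3). Over all clusters, those lower numbered 616 in the main fit, 1165 after median centring and 2778 with the erythroid covariate. Without wildtype replicate 3 they numbered 1913, and without mutant replicate 3 they numbered 1744. Without wildtype replicate 1, wildtype replicate 2, mutant replicate 1 or mutant replicate 2 they numbered 179, 190, 312 or 234, in that order. The cause was not tested.

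The sign turned for *Tfrc* (-0.018 with the erythroid covariate, -0.090 without the high-*Afp* arrays, -0.049 to 0.065 with each array left out), *Slc11a2* (0.0671 after quantile normalisation and 0.0668 after cyclic loess, -0.17 to 0.092 with each array left out), *Steap3* (-0.10) and *Fth1* (-0.014) with the erythroid covariate, and *Slc25a37* minus the erythroid level (-0.075 with the erythroid mean, -0.060 to 0.199 with each array left out). None of these passed its test under the setting that turned its sign, and *Steap3* passed an unadjusted p under 0.05 only with a positive difference, in the 4 settings named above.

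The replicate block changed no call among the members, with *Slc25a37* at an adjusted p of 0.131 and the counts at 1 higher and 0 lower. Among the other iron genes *Hjv* lost its call with the block (limma, unadjusted p = 0.0536), and over 20 alternatives it was under an unadjusted p of 0.05 in 11, *Isca2* in 12, *Slc46a1* in 13, *Heph* in 14 and *Blvrb* in 17. By the methods' t-test on log2 values *Hjv* kept its call (unadjusted p = 0.0439). *Blvrb*, *Heph*, *Slc46a1* and *Isca2* lost theirs by that t-test (unadjusted p = 0.075 to 0.106). Over all clusters, 175 higher and 616 lower became 281 and 776 with the block, 344 and 597 after quantile normalisation, and 389 and 475 after cyclic loess. The median over all clusters moved from -0.09 to -0.029 with quantile normalisation, to -0.015 with cyclic loess and to -0.26 with the erythroid covariate. Each gene of the lists had at most 1 cluster of its own, so the mean of several clusters gave no separate value. Precision is limited by 3 arrays per genotype.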
